A study of Mus musculus with 10 samples.

Results

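The small subunit of the ribosome reads the codons of an mRNA, and its proteins surround a ribosomal RNA folded into a head, a body and a platform. Most of their mRNAs begin, directly after the cap, with a C followed by a run of pyrimidines, the 5′-terminal oligopyrimidine (TOP) motif, through which the mTOR pathway controls their translation. Larp1 is an RNA-binding protein that holds the cap and the TOP motif and is known to bind poly(A) and its binding protein as well. The data described here are the poly(A) tails and levels of 27 genes for small subunit proteins in cells with lowered Larp1. They were chosen by name (Rps2, Rps3, Rps3a1, Rps4x, Rps6, Rps7, Rps9, Rps10, Rps12, Rps13, Rps14, Rps15, Rps15a, Rps16, Rps18, Rps19, Rps20, Rps21, Rps23, Rps24, Rps26, Rps27, Rps27l, Rps28, Rps29, Rpsa and Fau). All 27 had reads, out of 13647 genes with a kept read, and together they held 189491 reads.

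Cells were of the mouse line P19, an embryonal carcinoma line kept undifferentiated, with no engineered allele (labelled WT). The siCtl groups received a pool of scrambled siRNAs and the siLarp1 groups a single siRNA against Larp1, so that effects of that siRNA on other genes cannot be told apart from those of Larp1. RNA was collected at 24 h from 3 siCtl and 3 siLarp1 libraries, and at 48 h, after a second transfection in both arms, from 2 siCtl and 2 siLarp1 libraries. Poly(A) RNA was sequenced as native molecules on nanopores, so that 1 read is 1 mRNA molecule with its tail.

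Libraries held 117973 to 441758 kept alignments, and at 24 h each siLarp1 library was shallower than each siCtl library. They are named here by the numbers in the deposited table, 19, 21 and 22 at 24 h and 24 and 25 at 48 h, in both treatments. At 24 h the treatments were sequenced as separate pools, so pool and treatment cannot be told apart, whereas the 4 libraries at 48 h shared 1 pool. Larp1 mRNA was covered by 22 to 36 reads per siCtl library and 3 to 6 per siLarp1 library at 24 h, and the siLarp1 mean was 39.6% of the siCtl mean at 24 h and 14.9% at 48 h. A two-sided exact permutation test gave p = 0.1 and p = 0.33, which is as low as 3 against 3 and 2 against 2 libraries can give. Over both times Larp1 fell by 1.84 ± 0.34 (SE) on the log2 scale (limma voom, adjusted p = 0.00405). Levels are given as RPM, reads per 1000000 kept reads of a library. Markers of pluripotent cells summed to 3254 to 4470 RPM, with 12 of 13 genes detected, against 295 to 418 RPM for 14 neuronal genes (11 detected) and 7.14 to 47.8 RPM for 9 endodermal genes (6 detected). At 48 h the pluripotent sum (3766 to 4060 RPM in siCtl against 4287 to 4470 in siLarp1) and the endodermal sum (21.5 to 33.9 against 35.5 to 47.8) were higher in each siLarp1 library. The 8 mesodermal and muscle genes (4 detected) summed to 19.5 to 81.5 RPM at 24 h and 136 to 375 RPM at 48 h, with overlap between the treatments at both times. The part of these marker lists in the results was not tested.

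The sequence at the start of the mRNAs bears on how Larp1 sees them, and it was read where the molecules began. A direct RNA read stops a little short of the cap, and the commonest first aligned base of each member's main transcript was taken as the anchor. A window of up to 30 bases, from 22 before to 8 from this base on, was searched on the sense strand for a C followed by at least 4 letters that are each C or T. Such a run was present in 26 of 27 members (96.3%), against 31.9% of 2355 transcripts outside ribosomal protein genes with at least 100 reads. Runs of 8 or more bases were present in 24 of 27 members (88.9%), against 8.62% of those transcripts. The first base of the run lay 11 to 22 nt before the commonest read start. The window reaches back 22 nt, so this is the largest distance it can give. The runs of Rps10 and Rps15a began at that edge and may extend further. The windows below are those of the 8 members with the clearest change in short tails, of Rps21 and Rpsa, whose tails of 30 to 90 nt are described further on, and of the paralogs Rps27 and Rps27l. Sequences are from GENCODE transcripts on build GRCm38, all lie in exon 1 in the annotated 5′ UTR, and capitals mark the longest run.
Rps24: CTCTTTTCCTCCTCTCCagctc
Rps28: tcacgtgaCTCCTCTCCgccagatcgccgc
Rps10: CTTCCTTTCCagcctccgcctcggaccctg
Rps6: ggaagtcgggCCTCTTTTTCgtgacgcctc
Rps19: accccgtcgttCCCTTTCCCCTggctggca
Rps23: gcaCCTCCTCTCTCTTTCTCTTgggcccgt
Rps12: caccgccggCCTTTTCCCCTgccgccgccg
Rps20: gtccggCCCCTCCTTTCTgagccccggcgg
Rps21: gagctaCTTCCTTTCTgcgctctcgctgga
Rpsa: gcccgtCCTTTCgcgctacccggggacggg
Rps27: gCTCCTTTCCggcggtgacgac
Rps27l: cgaaagcgagcagttcgtctcggcgacctg

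The windows lie at chr14:24490718-24490739 (plus strand) for Rps24, chr17:33824477-33824506 (minus) for Rps28, chr17:27635215-27635244 (minus) for Rps10, chr4:86857349-86857378 (minus) for Rps6 and chr7:24884622-24884651 (plus) for Rps19. Those of Rps23, Rps12 and Rps20 lie at chr13:90923154-90923183 (plus), chr10:23787181-23787210 (minus) and chr4:3835582-3835611 (minus). Rps21 is at chr2:180257407-180257436 (plus), Rpsa at chr9:120127781-120127810 (plus), Rps27 at chr3:90213630-90213651 (minus) and Rps27l at chr9:66946117-66946146 (plus). Rps27l, a paralog of Rps27 that p53 is known to induce, was the member without a run in its window, while the run of Rps27 had 9 bases. The longest of the 26 runs, with 19 bases, was that of Rps23, a protein of the decoding centre. The shortest, with 6 bases, was that of Rpsa, also known as the laminin receptor.

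**Figure D1:**
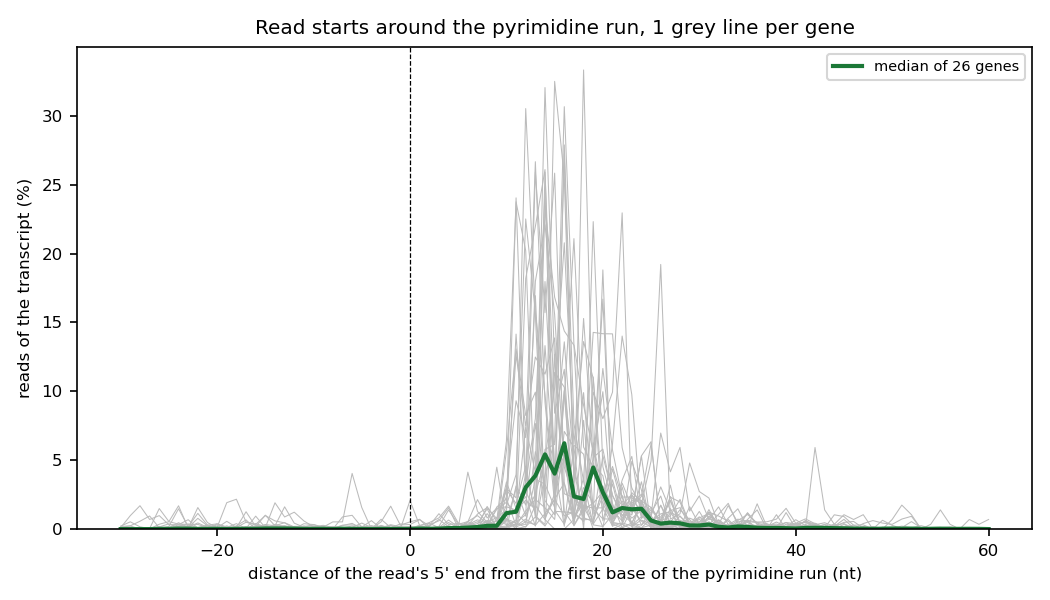
Share of reads (%, y axis) by the distance of the read's 5′ end from the first base of the pyrimidine run (nt, x axis), with 1 grey line for each of 26 genes and the median in green. The commonest read start lay 11 to 22 nt after the first base of the run in each of these genes, where 22 nt is the edge of the searched window.

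Reads with short tails reached as far towards the cap as the others. On the main transcripts, 78.2 ± 1.21% (SD, n = 3 libraries) of reads with tails below 30 nt in siCtl cells at 24 h began at or before the position 5 nt past the commonest start, and 79.4 ± 0.197% of the reads with longer tails did so. In siLarp1 cells at 24 h the shares were 79.2 ± 0.201% and 79.4 ± 0.192%. At 48 h they were 74.4 ± 4.87% and 75.9 ± 1.50% in siCtl (n = 2) and 75.8 ± 1.36% and 75.7 ± 0.577% in siLarp1 (n = 2). In each group the ranges of both tail classes over libraries overlapped.

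The first comparison asks whether small subunit mRNAs with tails below 30 nt become more frequent when Larp1 is lowered. Summed over the 27 genes, 1.80%, 1.64% and 1.75% of the reads of siCtl libraries 19, 21 and 22 had such tails at 24 h, against 2.75%, 3.20% and 3.01% in siLarp1. At 48 h the shares were 2.91% and 2.12% in siCtl libraries 24 and 25, against 4.52% and 4.22% in siLarp1. Each siLarp1 library was above each siCtl library of its time, and the group means were 1.73 ± 0.0801% against 2.99 ± 0.228% at 24 h (SD, n = 3) and 2.51 ± 0.557% against 4.37 ± 0.212% at 48 h (n = 2). With each gene counted with equal weight the means were 1.69% against 2.99% and 2.43% against 4.35%. Both sequencing runs of the 48 h pool gave this order: 2.74% and 2.00% against 4.50% and 4.38% in the deeper run, and 3.37% and 2.44% against 4.57% and 3.80% in the other.

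Among reads of genes outside the ribosomal proteins, the share with short tails was 2.43 ± 0.241% against 2.65 ± 0.436% at 24 h and 3.03 ± 0.0147% against 3.56 ± 0.726% at 48 h. The siLarp1 library 21 at 24 h (3.16%) and the siLarp1 library 24 at 48 h (4.07%) were the highest of their time in this background, and without them 10 and 11 members passed the test over both times described below, in place of 13.

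**Figure D2:**
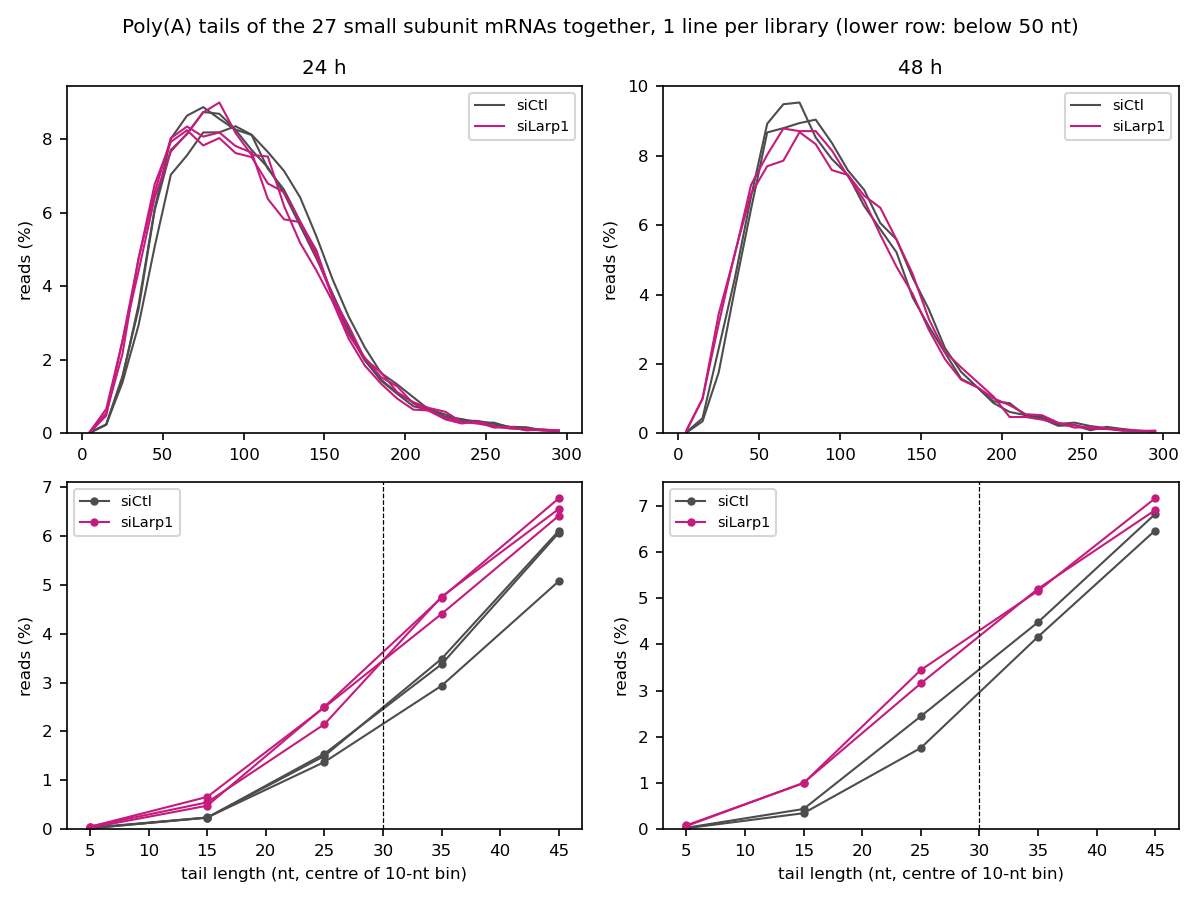
Share of the reads of the 27 genes together (%, y axis) in 10-nt bins of tail length (nt, x axis) at 24 h (left) and 48 h (right), with 1 line per library (grey siCtl, magenta siLarp1) and the range below 50 nt enlarged in the lower row. Below the dashed line at 30 nt, the siLarp1 libraries lie above the siCtl libraries at both times (2.75% to 3.20% against 1.64% to 1.80% at 24 h).

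The 3 shortest tail classes were each more frequent in siLarp1. Tails below 20 nt made up 0.256 ± 0.00863% of reads in siCtl and 0.604 ± 0.101% in siLarp1 at 24 h, and 0.413 ± 0.0723% against 1.07 ± 0.00668% at 48 h. Tails of 20 to 30 nt made up 1.47 ± 0.0876% against 2.38 ± 0.203% and 2.10 ± 0.485% against 3.30 ± 0.205%. The class of 30 to 40 nt held 3.27 ± 0.292% against 4.64 ± 0.198% and 4.32 ± 0.223% against 5.18 ± 0.0314%. In all 3 classes the groups did not overlap at either time. Of the classes of 40 to 60, 60 to 90, 90 to 150 and over 150 nt, none was higher in each siLarp1 library at either time. Tails of 90 to 150 nt were lower in each siLarp1 library at 24 h (41.4 ± 1.51% in siCtl against 38.8 ± 0.402%) and those of 60 to 90 nt at 48 h (27.2 ± 0.544% against 25.5 ± 0.943%), while the other classes overlapped.

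Gene by gene, the share of short tails was tested with a quasi-binomial model over all genes with at least 30 reads, and an effect is given as the log2 ratio of odds, siLarp1 over siCtl. Over both times, with time as a term, 13 of 27 members rose at an adjusted p under 0.05, and 1.22% of 3537 genes tested rose (43 genes, with none that fell). All 43 had at least 1000 reads, as 26 of the members have, and made up 14.9% of the 289 genes of that depth. The members that rose were Rps3, Rps3a1, Rps6, Rps9, Rps10, Rps12, Rps15a, Rps19, Rps20, Rps23, Rps24, Rps28 and Fau. All 27 effects were above 0, against 59.3% of all genes tested and 83.7% of the genes with at least 1000 reads, and 22 had an unadjusted p under 0.05, against 5.12% and 33.2%. The median effect was 0.90 for the members, 0.29 for all genes tested and 0.65 for the 289 genes with at least 1000 reads.

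At 48 h, 6 of 26 members rose (Rps3, Rps6, Rps10, Rps20, Rps23 and Rps24), against 1.51% of 1390 genes and 16.7% of the 120 with at least 1000 reads. At that time 17 had an unadjusted p under 0.05 and a higher share, against 6.62% of genes and 44.2% of those with at least 1000 reads. All 26 effects were above 0, against 59.5% and 89.2%, while Rps2, without a short-tailed siCtl read, could not be fitted. At 24 h none of 27 passed the adjusted threshold, against 0.0775% of 3871 genes and 1.37% of the 219 with at least 1000 reads. An unadjusted p under 0.05 with a higher share in siLarp1 was found for 15, against 2.74% of genes and 32.4% of those with at least 1000 reads, and 26 effects were above 0, against 47.2% and 79.5%.

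The moderation gave all genes of a fit the same dispersion, and 5 of the 13 calls were lost when a gene's own dispersion was used where it was larger. These were Rps24 (adjusted p = 0.0944 in that quasi-binomial model), Rps20 (0.374), Fau (0.604), Rps3a1 (0.781) and Rps19 (1), whose own dispersion was 5.84 against the common 1.21. At 48 h the call of Rps20 was then lost. With dispersions moderated towards a trend on read depth, 13 members passed over both times, 3 at 24 h (Rps19, Rps24 and Rps28) and 3 at 48 h (Rps3, Rps10 and Rps24).

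The replicate number as a block raised the 24 h count to 7 (Rps6, Rps10, Rps12, Rps19, Rps23, Rps24 and Rps28), against 2.08% of 1301 genes tested and 12.5% of those with at least 1000 reads. It left the count at 13 over both times, against 2.83% of 1623 genes and 16.3%, and lowered it to 2 at 48 h (Rps10 and Rps24), against 0.758% of 1187 genes and 7.5%. Without siCtl library 25 no member passed at 48 h and 8 did so over both times, and without siLarp1 library 24 the counts were 1 and 11. An arm at 48 h then holds 1 library, which is assumed to vary like the others. The effects at the 2 times were compared by an interaction term, which passed for none of 3406 genes tested (0.0%). It was above 0 for 16 of 27 members, against 50.9% of genes, and had an unadjusted p under 0.05 for no member, against 0.352% of genes with a larger and 0.206% with a smaller effect at 48 h.

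**Figure D3:**
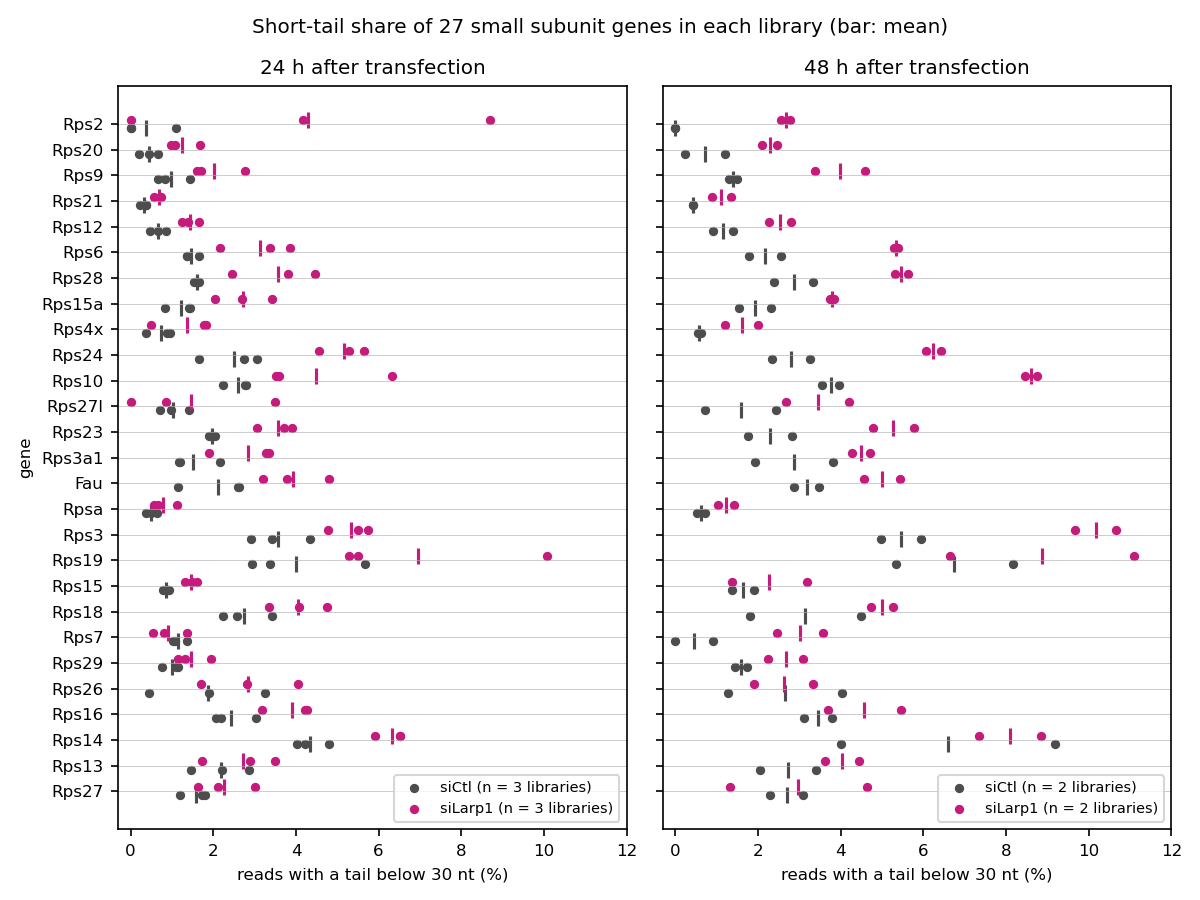
Share of reads with tails below 30 nt (%, x axis) of each gene (y axis) in each library at 24 h (left) and 48 h (right), with points for libraries (grey siCtl, magenta siLarp1) and bars for group means, ordered by the effect over both times. In 15 of 27 genes at 24 h and 20 of the 26 genes that could be tested at 48 h, each siLarp1 library lies above each siCtl library.

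Groups did not overlap, with siLarp1 higher, for 15 of 27 members at 24 h, against 3.25% of all genes tested and 33.3% of the 219 genes with at least 1000 reads. At 48 h this held for 20 of 26 members, against 19.4% of all genes tested and 58.3% of the 120 genes with at least 1000 reads. In no member was each siLarp1 library below each siCtl library at either time, against 3.87% and 7.12% of genes. A single library's share carries the counting error of few short-tailed reads: 14 of 2982 reads of Rps12 in siCtl library 22 give a 95% Wilson interval of 0.280% to 0.787%, and 1 of 76 reads of Rps27 in siLarp1 library 25 gives 0.233% to 7.08%. Such intervals cover counting error only.

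By position in the subunit, 6 of 10 head proteins, 6 of 9 body proteins and 1 of 8 platform proteins (Rps3a1) rose over both times. Of all genes tested 1.22% rose, and of those with at least 1000 reads 14.9%. The median effects were 0.76, 1.11 and 0.72, against 0.29 for all genes and 0.65 for those with at least 1000 reads. Of the 8 platform genes, Rps13, Rps26 and Rps27 have copies that hold reads, and Rps14 has a low mapping quality, as described further on. A low median mapping quality was also found for Rps2 and Rps7 of the body and Rps18 of the head. The difference between the lists was not tested.

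Among the body proteins, Rps24, whose loss causes Diamond-Blackfan anaemia, had the smallest p. Its short-tail share was 2.75%, 1.67% and 3.06% in siCtl libraries 19, 21 and 22 and 5.63%, 5.27% and 4.55% in the siLarp1 libraries of the same numbers. At 48 h it was 3.27% and 2.34% against 6.07% and 6.43%. The groups were separate at both times, and the effect over both times was 1.10 ± 0.19 (SE, adjusted p = 2.65e-06).

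Rps6 is the protein that S6 kinase phosphorylates downstream of mTOR. Its shares at 24 h were 1.38%, 1.37% and 1.66% in siCtl and 3.86%, 2.15% and 3.38% in siLarp1. They were 1.78% and 2.55% against 5.38% and 5.29% at 48 h. No siLarp1 library reached down to a siCtl library, and the effect was 1.15 ± 0.24 (adjusted p = 0.000617).

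Rps23, with the longest pyrimidine run, showed shares of 2.05%, 1.90% and 1.96% in siCtl and 3.72%, 3.91% and 3.06% in siLarp1 at 24 h. At 48 h these were 1.77% and 2.83% against 4.79% and 5.77%. The siCtl libraries lay below the siLarp1 libraries at both times, and the effect was 0.96 ± 0.20 (adjusted p = 0.000701). The other body proteins that rose were Rps9 (1.30 ± 0.31), a protein near the mRNA entry side, Rps15a (1.12 ± 0.27) and Fau (0.82 ± 0.23), which is made as a fusion with a ubiquitin-like protein.

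The head proteins that rose included Rps28, a small protein near the exit of the mRNA channel. Its shares were 1.54%, 1.61% and 1.66% in siCtl and 2.45%, 3.81% and 4.47% in siLarp1 at 24 h, then 3.33% and 2.40% against 5.31% and 5.63% at 48 h. The groups were separate at both times (effect 1.15 ± 0.21, adjusted p = 2.41e-05).

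Rps10, a protein at the beak of the head, had shares of 2.79%, 2.23% and 2.78% in siCtl and 3.60%, 3.52% and 6.33% in siLarp1 at 24 h. At 48 h they reached 8.46% and 8.76% in siLarp1, with 3.97% and 3.56% in siCtl. Library 22 was highest at 24 h, and the groups were separate at both times (effect 1.03 ± 0.19, adjusted p = 5.26e-05).

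Rps12 had the most reads of the members, 14136. Its shares were low, with 0.845%, 0.674% and 0.469% in siCtl and 1.40%, 1.26% and 1.64% in siLarp1 at 24 h. At 48 h they were 1.40% and 0.906% against 2.26% and 2.81%. The groups were separate at both times, at lower shares than those of Rps24 or Rps10, and the effect was 1.20 ± 0.26 (adjusted p = 0.00084).

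Rps20 gave the largest effect of a member that passed, 1.68 ± 0.38 (adjusted p = 0.00111), from low shares. These were 0.449%, 0.662% and 0.215% in siCtl and 1.69%, 1.06% and 0.980% in siLarp1 at 24 h, and 1.20% and 0.243% against 2.47% and 2.11% at 48 h. Its siCtl library 25 at 48 h held 2 short-tailed reads, and without this library the effect was 1.35 with an adjusted p of 0.0612.

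Rps19, the gene most often mutated in Diamond-Blackfan anaemia, had high shares in both treatments. They were 3.37%, 5.66% and 2.94% in siCtl and 5.50%, 10.1% and 5.27% in siLarp1 at 24 h, and 8.16% and 5.33% against 11.1% and 6.65% at 48 h. Libraries numbered 21 and 24 were the highest of their group in each treatment, and siCtl and siLarp1 overlapped at both times. The effect was 0.75 ± 0.16 (adjusted p = 0.000631). Without siLarp1 library 21 it was 0.50, with an adjusted p of 0.287. Rps3, at the entry of the mRNA channel, rose by 0.77 ± 0.17 over both times.

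Some members with many reads did not pass. Rpsa, with 10749 reads, had shares of 0.485%, 0.638% and 0.365% in siCtl and 1.11%, 0.563% and 0.659% in siLarp1 at 24 h, which overlap. At 48 h these were 0.727% and 0.534% against 1.03% and 1.42%, which do not (effect 0.78 ± 0.39, adjusted p = 0.756). Rps29, with 9607 reads, had shares of 1.14%, 0.761% and 1.09% against 1.14%, 1.95% and 1.31% at 24 h and 1.73% and 1.44% against 3.09% and 2.26% at 48 h (effect 0.65 ± 0.28, adjusted p = 0.546). Both passed when the limit of a short tail was 40 nt (adjusted p = 0.0152 for Rpsa and 0.00179 for Rps29).

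The 3 smallest effects were those of Rps27, Rps13 and Rps14. Rps14, known for its loss in a form of myelodysplastic syndrome, had some of the highest shares of all members, 4.03%, 4.23% and 4.80% in siCtl and 5.91%, 6.52% and 6.53% in siLarp1 at 24 h. At 48 h its siCtl libraries differed, with 9.18% and 4.02%, and enclosed the siLarp1 values of 7.34% and 8.85%. The effect was 0.54 ± 0.17 (adjusted p = 0.105), and 0.68 without siCtl library 24 (adjusted p = 0.0132).

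Rps13 had shares of 2.87%, 1.46% and 2.21% in siCtl and 1.72%, 2.90% and 3.50% in siLarp1 at 24 h. At 48 h they were 3.41% and 2.04% against 3.64% and 4.44%. The groups overlapped at 24 h and lay close at 48 h, and the interval of the effect, -0.15 to 1.07, includes the median of the members.

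The paralogs Rps27 and Rps27l, which differ in the pyrimidine run, both had wide intervals. Rps27 had shares of 1.20%, 1.81% and 1.73% in siCtl and 2.11%, 3.00% and 1.64% in siLarp1 at 24 h, and 2.30% and 3.10% against 4.63% and 1.32% at 48 h. Its effect was 0.39 (95% interval -0.77 to 1.54). Rps27l had shares of 1.41%, 0.968% and 0.716% in siCtl, and of 0 of 102 reads (which allows up to 2.94%), 0.862% and 3.49% in siLarp1 at 24 h, then 2.44% and 0.730% against 2.68% and 4.21% at 48 h. Its effect was 0.97 (-0.23 to 2.16). They rest on 1534 and 1906 reads, and the difference between the paralogs was not tested.

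**Figure D4:**
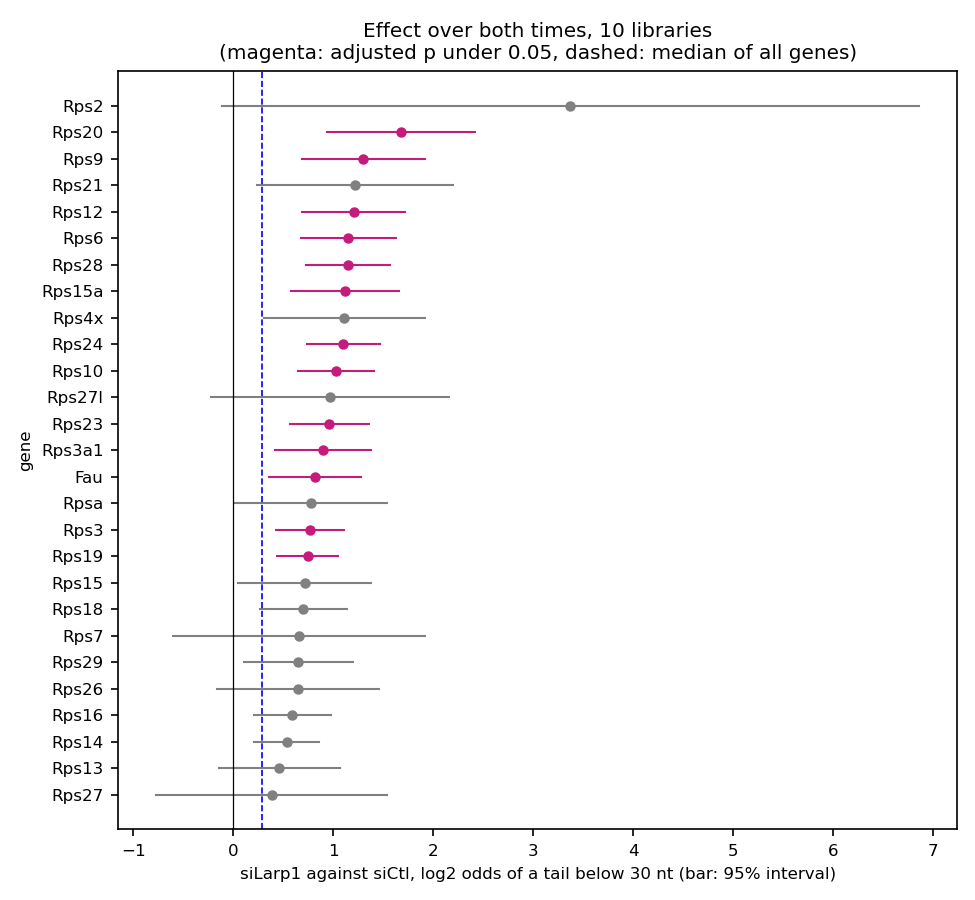
Effect of siLarp1 on the odds of a tail below 30 nt (log2, x axis) over both times for each of 27 genes (y axis), with 95% intervals, magenta where the adjusted p is under 0.05, and a dashed line at the median of all genes tested (0.29). All 27 effects lie above 0, and 13 pass the threshold.

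The remaining members were Rps2, Rps4x, Rps7, Rps15, Rps16, Rps18, Rps21 and Rps26. Their effects ranged from 0.59 (Rps16) to 3.37 (Rps2), and none passed. Rps2 had only 0 to 2 short-tailed reads per library, and Rps7 0 to 5. Rps7 was the only member below 0 at 24 h, -0.38 ± 1.02, and stood at 3.23 ± 1.57 at 48 h.

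For some members the reads could not be placed with certainty. Rps2 itself held 405 reads, with a median mapping quality of 1, while 18734 reads were placed on the copy Rps2-ps10, whose short-tail share was 0.222 ± 0.0155% in siCtl and 0.145 ± 0.132% in siLarp1 at 24 h and 0.377 ± 0.0625% against 1.04 ± 0.0572% at 48 h. Rps26 held 2988 reads and Rps26-ps1 7196, and the copy rose in short tails over both times (effect 0.98 ± 0.25, adjusted p = 0.0132), whereas the effect of Rps26 was 0.65 ± 0.41. Rps13 held 4634 reads and Rps13-ps1 1991 (effect 0.76 ± 0.28, adjusted p = 0.262). Of the Rps27 reads, 74.7% had a mapping quality of 0, and Rps27rt, which matches it closely, held 5949 reads (effect 0.67 ± 0.22, adjusted p = 0.146). A median mapping quality of 2 or less was also found for Rps7, Rps14 and Rps18. For Rps18, 237 reads were placed on copies named after it, and for Rps7 and Rps14 none. Values of Rps2, Rps13, Rps18, Rps26 and Rps27 are uncertain in that reads of a gene and its copies may have been exchanged. For Rps7 and Rps14 the cause of the low mapping quality was not tested.

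The order of the members by short-tail share was similar at both times in siCtl cells. Over the 26 members with at least 1000 reads, Pearson's r between the 24 h and the 48 h means was 0.960 and Spearman's rho 0.927, in separate libraries of the same genes. High shares belonged to Rps14, Rps19 and Rps3 (4.35%, 3.99% and 3.56% at 24 h) and low shares to Rps21, Rps20 and Rpsa (0.320%, 0.442% and 0.496%). Neither the median aligned length (rho 0.14 at 24 h) nor the effect of siLarp1 against the length of the pyrimidine run (rho -0.05) showed such a relation. The siLarp1 effects at 24 h and at 48 h were less alike over these 26 members, with r -0.13 and rho 0.515. They include Rps7, which rests on few short-tailed reads and had the lowest effect at 24 h and the highest at 48 h. The correlation without Rps7 was not calculated.

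Other genes of the ribosome were read in the same way. Of the small subunit genes outside the 27, 6 of 8 tested rose over both times, and all 8 effects were above 0. Of all genes tested, 1.22% rose and 59.3% had effects above 0. Of those with at least 1000 reads, 14.9% rose and 83.7% had effects above 0. Rps25 had 0.714 ± 0.313% short tails in siCtl and 2.78 ± 0.418% in siLarp1 at 24 h, and 1.05 ± 0.623% against 4.59 ± 0.677% at 48 h (effect 2.03 ± 0.31, adjusted p = 6.99e-09), an estimate above those of the 13 members that rose, with no test of the difference. Rps27a, a fusion of ubiquitin and a small subunit protein, had 1.63 ± 0.154% against 3.61 ± 0.228% and, at 48 h, 2.02 ± 0.0510% against 5.18 ± 0.0543% (effect 1.24 ± 0.18, adjusted p = 6.99e-09). Of 49 large subunit genes 20 rose and all 49 effects were above 0. Their median was 0.82, against 0.29 for all genes tested and 0.65 for those with at least 1000 reads. The smallest p-values among the large subunit genes were those of Rpl23a (0.96 ± 0.16) and Rpl32 (0.80 ± 0.14). Factors that assemble the small subunit had a median effect of 0.20, 25 of 36 tested had an effect above 0, and none passed, with 1 at an unadjusted p under 0.05 in the quasi-binomial model. Their depth was low: the 2 with the smallest p, Utp15 and Dimt1, had 90 and 97 reads.

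The next comparison concerns tails of 30 to 90 nt, the class that the study names after its centre near 60 nt. Summed over the members this class held 41.8 ± 2.48% of reads in siCtl and 44.0 ± 0.415% in siLarp1 at 24 h, and 46.9 ± 1.18% against 45.7 ± 1.35% at 48 h, and the groups overlapped at both times. Groups did not overlap for 7 of 27 members at 24 h, all higher in siLarp1, against 4.47% of genes that were higher and 7.23% that were lower. At 48 h 4 were higher, against 11.0%, and 8 lower, against 23.6%. These shares are over genes of all depths, and overlap was not counted for those with at least 1000 reads. Over both times 3 members rose, Rps12, Rps21 and Rpsa, against 0.085% of 5880 genes tested that rose, 1.72% of the 290 with at least 1000 reads, and 0.051% that fell. At 24 h Rps12 and Rps21 rose, against 0.124% of 4828 genes and 2.74% of the 219 with at least 1000 reads. These calls rest on the common dispersion of the fit. It was 1.14 over both times, against 2.12, 2.53 and 2.34 for Rps12, Rps21 and Rpsa alone, and no member passed at either time or over both with a gene's own dispersion where larger or with a trend on read depth (adjusted p over both times 0.0617 for Rps21, 0.261 for Rps12 and 0.823 for Rpsa with the trend, and 1 for each with its own). With an unadjusted p under 0.05, 8 members were higher at 24 h, against 1.91% of genes, and 1 lower, against 3.19%. Of the 219 genes with at least 1000 reads, 27 were higher and 10 lower. At 48 h no member or gene passed (0.0% of 2720). With an unadjusted p under 0.05, 4 members were then higher, against 1.58%, and 5 lower, against 5.48%. Of the 120 genes with at least 1000 reads, 8 were higher and 23 lower. Effects above 0 were found in 8 members at 48 h, against 37.4% of genes and 39 of these 120.

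Rps21, a platform protein, had 29.7%, 27.4% and 32.6% of its reads in this class in siCtl and 35.2%, 35.6% and 40.4% in siLarp1 at 24 h. At 48 h the shares were 36.0% and 33.0% against 42.0% and 38.0%. The groups were separate at both times (effect 0.44 ± 0.08, adjusted p = 2.86e-05). Rps12 had 45.9%, 41.1% and 44.8% against 48.8%, 51.8% and 48.8% at 24 h and 48.7% and 49.0% against 52.7% and 52.4% at 48 h. It too was higher in each siLarp1 library (effect 0.30 ± 0.06, adjusted p = 0.000134). Rpsa had 42.0%, 36.9% and 42.0% against 46.0%, 43.6% and 45.2% at 24 h and 48.4% and 43.9% against 50.5% and 48.8% at 48 h. Its groups were separate as well (effect 0.26 ± 0.06, adjusted p = 0.0303, and 0.127 with the replicate number as a block). With the class narrowed to 40 to 80 nt, only Rps12 passed over both times. The copy Rps2-ps10 rose in the 30 to 90 nt class at 24 h and over both times.

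At the other end, Rps3, Rps13 and Rps14 had lower shares of this class in siLarp1 at 48 h (-0.47 ± 0.14, -0.62 ± 0.18 and -0.51 ± 0.14), and none of them passed (adjusted p = 0.427 for each). The 48 h effect minus the 24 h effect was below 0 for 23 of 27 members, against 52.1% of genes and 74.5% of those with at least 1000 reads, and -0.76 ± 0.23 for Rps13 (adjusted p = 0.774). No gene passed this interaction test, and 5 members had an unadjusted p under 0.05 with the smaller effect at 48 h, against 2.98% of 5868 genes and 11.0% of the 290 with at least 1000 reads.

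The median tail was shorter in siLarp1 for 21 of 27 members over both times, against 40.8% of all genes tested and 57.9% of the 290 with at least 1000 reads. The median difference was -1.81 nt, against 1.51 nt for all genes and -0.81 nt for those with at least 1000 reads. It fell for Rps12, Rps21 and Rps23, which were the 3 genes that passed among 1286 tested (0.233%). At 24 h and at 48 h alone no member or gene passed (0.0%). With an unadjusted p under 0.05, 9 members were lower at 24 h, against 2.8% of genes. At 48 h 3 were lower and 2 higher, against 1.42% and 3.99%. Among genes with at least 1000 reads, 28 of 219 were lower at 24 h, and 7 of 120 were lower and 5 higher at 48 h. Groups did not overlap for 8 members at 24 h, all lower in siLarp1, against 6.08% of genes that were lower and 6.42% that were higher. At 48 h 8 were lower, against 13.0%, and 4 higher, against 21.6%. Overlap of medians was not counted for genes with at least 1000 reads, so these shares are not matched for depth.

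The median tail of Rps12 was 93.2, 98.5 and 95.7 nt in siCtl and 89.9, 86.7 and 89.0 nt in siLarp1 at 24 h, then 89.96 and 90.1 against 83.0 and 84.3 nt at 48 h. It fell by 7.10 nt (SE 1.26, limma, adjusted p = 0.00511). Rps23 had medians of 95.1, 99.9 and 94.6 nt against 86.5, 92.2 and 87.3 nt and, at 48 h, 89.7 and 90.7 against 81.7 and 85.8 nt, and fell by 7.52 nt (SE 1.61, adjusted p = 0.0379). Rps21, with the longest tails of these 3, had 111.0, 114.0 and 108.1 nt against 105.0, 104.0 and 102.2 nt and 105.1 and 107.4 against 97.2 and 100.9 nt. It fell by 7.38 nt (SE 1.65, adjusted p = 0.0438). For each of these genes the siLarp1 libraries lay below the siCtl libraries at both times, but the calls did not hold without single libraries. Without siLarp1 library 22 at 24 h the adjusted p was 0.0559 for Rps12 and 0.245 for Rps21 and Rps23, and the calls of Rps21 and Rps23 were also lost without siCtl library 19 or 21, siLarp1 library 19, siCtl library 25 or siLarp1 library 24.

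The last comparison is of mRNA levels, in RPM. In bulk RNA, fewer cells with an mRNA and less of it per cell cannot be told apart. The 27 genes made up 8.97 ± 0.118% of kept reads in siCtl and 9.24 ± 0.219% in siLarp1 at 24 h, and 8.68 ± 0.140% against 8.24 ± 0.388% at 48 h, with overlap at 24 h but not at 48 h. No member passed the test of abundance at 24 h, at 48 h or over both times (limma voom, adjusted p), against 0.034% of 5887 genes that rose and 0.051% that fell over both times. With an unadjusted p under 0.05, 6 members were higher at 24 h, against 3.31% of genes. At 48 h 1 was higher and 5 were lower, against 2.53% and 2.28%. Over both times 5 were higher and 3 lower, against 3.64% and 2.23%. Of the genes with at least 1000 reads, 14 of 219 were higher at 24 h. Of 120 such genes at 48 h, 6 were higher and 24 lower, and of 290 over both times, 19 were higher and 30 lower. The median log2 fold change was -0.00 at 24 h and -0.14 at 48 h, against 0.01 and 0.02 for all genes and -0.01 and -0.06 for those with at least 1000 reads. At 48 h 21 of 27 members were lower in siLarp1, against 47.0% of genes and 70.0% of the 120 with at least 1000 reads. At 24 h the groups did not overlap for 4 members, all higher in siLarp1, against 4.58% of genes that were higher and 6.13% that were lower. They did not overlap at 48 h, with siLarp1 lower, for 15 of 27 members, against 15.9% of genes, and with siLarp1 higher for 4, against 17.8%. Overlap of levels was not counted for genes with at least 1000 reads, so these shares are not matched to the depth of the members.

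**Figure D5:**
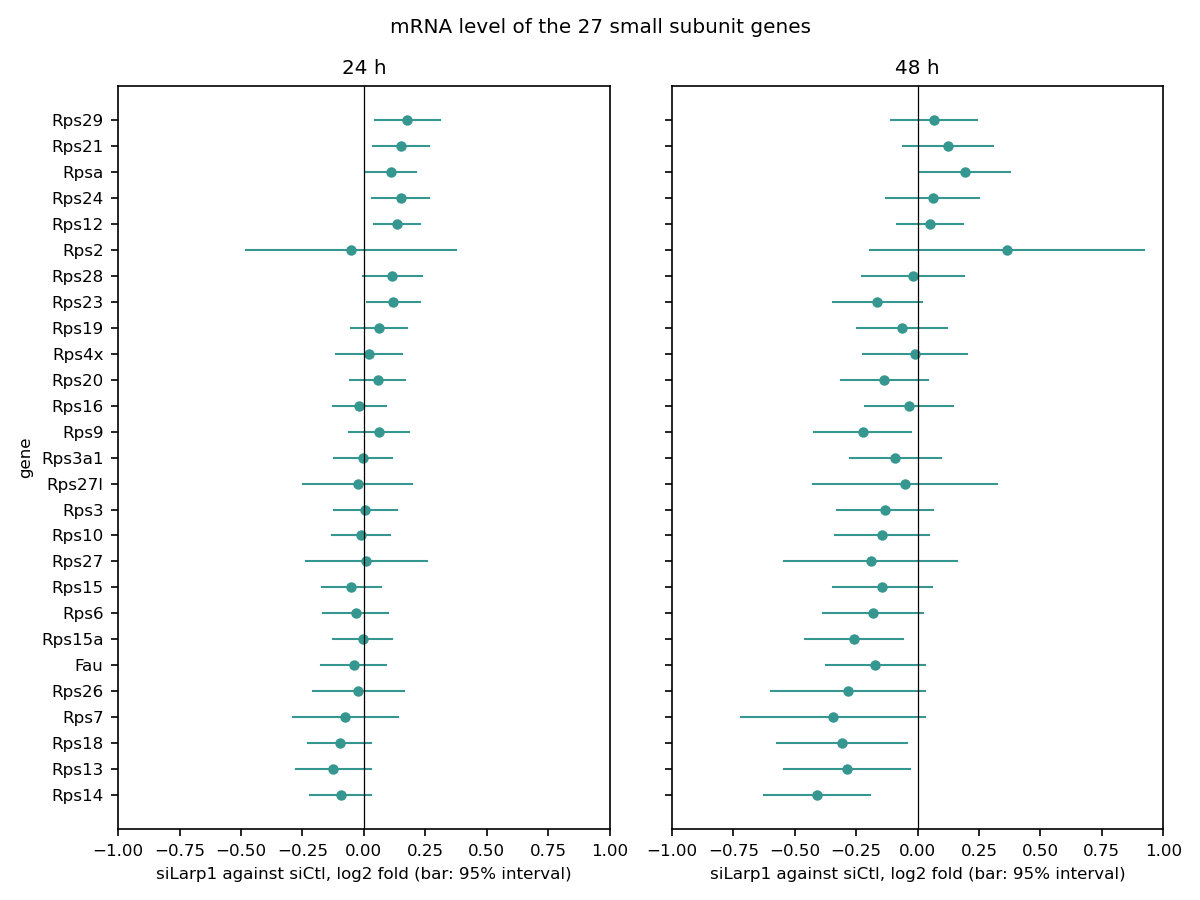
Change of mRNA level, siLarp1 over siCtl (log2, x axis), with 95% intervals for each of 27 genes (y axis) at 24 h (left) and 48 h (right), ordered by the change over both times. None passed at an adjusted p under 0.05, and at 48 h 21 of 27 values lie below 0.

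The members with the smallest p were Rps14, Rpsa and Rps21. Rps14 stood at 3684, 4017 and 3633 RPM in siCtl and 3647, 3505 and 3452 in siLarp1 at 24 h, and at 3416 and 4024 against 2738 and 2972 at 48 h. The siLarp1 libraries were lower at 48 h, by -0.41 ± 0.10, and the groups overlapped at 24 h (over both times -0.19 ± 0.06, adjusted p = 0.382). Rpsa stood at 4751, 4802 and 4957 against 5027, 5075 and 5547 at 24 h and at 4662 and 5048 against 5192 and 6184 at 48 h. It was higher in each siLarp1 library (0.14 ± 0.04, adjusted p = 0.552). Rps21 stood at 3559, 3788 and 3690 against 4166, 4012 and 4098 and at 3908 and 3771 against 3968 and 4447, also higher in each (0.14 ± 0.05, adjusted p = 0.604).

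Levels of same-numbered libraries deviated together at 24 h, and with the replicate number as a block 5 members rose at 24 h: Rps29 (0.19 ± 0.03), Rps24 (0.16 ± 0.04), Rps21 (0.15 ± 0.04), Rps12 (0.14 ± 0.02) and Rpsa (0.12 ± 0.03). In that fit 0.249% of all genes and 5.02% of those with at least 1000 reads rose. Over both times Rpsa, Rps29 and Rps12 rose, against 0.17% and 2.41%, and Rps14 fell by 0.18, against 0.153% and 1.72%. At 48 h Rps14 was the 1 member that fell, by 0.38, against 0.0734% and 0.833%. Rps21, Rps12 and Rpsa, which rose in level in this fit at 24 h, were also the members with a call in the share of 30 to 90-nt tails. Rps24 and Rps29 had higher shares of this class at 24 h as well (0.21 ± 0.09 and 0.30 ± 0.08), without passing.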

How the data were processed

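P19 cells with a control siRNA or an siRNA against Larp1 were profiled by Nanopore direct RNA sequencing. The authors called bases with Guppy, separated barcodes with Deeplexicon, aligned reads with minimap2 2.20 to mouse transcripts (mm10) and estimated tails with Nanopolish. The deposited table has 1 line per alignment, with tail length in nt, barcode confidence as a fraction and mapping quality as a score. Transcript versions and coordinates of the members matched GENCODE vM21 (GRCm38), from which sequences were taken. Which labelled replicate a library number stands for is not given in the sources used here. The study calls the replicates biological, without naming separate cultures, so p-values measure the spread between these libraries. For tail shares this spread was the common dispersion of all genes in a main fit, not that of the gene itself.

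Of 2583495 alignments to annotated transcripts, 2132085 (82.5%) had a tail estimate of PASS quality and were kept, and 1.43% of these came from reads with more than 1 alignment. Short tails were below 30 nt. Shares were tested per gene (at least 30 reads) with a quasi-binomial model, dispersions moderated with limma 3.58.1 (R 4.3.3). Medians (at least 10 reads in each library) were tested with limma and abundance with limma voom. Each used Benjamini-Hochberg adjustment over all genes tested and a threshold of 0.05. The models were first run on simulated data. In the simulation all genes had the same extra spread of shares between libraries, so genes that differ in it were not covered. Named genes were the 8 members with the smallest p for short tails, the 3 with most reads, the 3 with the smallest effect, both paralogs, and the 3 with the smallest p for each other measure. Of each other list of ribosomal or assembly genes, the 2 genes with the smallest p were named. Values of some other genes on these lists are not reported here. The members and lists were chosen with earlier results of these data known. 

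Library numbers were tested as a pairing on genes with at least 1000 reads, 219 at 24 h and 120 at 48 h: at 24 h the abundance deviations of same-numbered siCtl and siLarp1 libraries correlated by 0.17, 0.63 and 0.64. For short tails these values were 0.08, 0.13 and 0.18. At 48 h they were 0.36 for abundance and -0.06 for short tails. The pairing comes from the numbers and these correlations, not from a stated shared culture. No pair of libraries agreed within sampling noise.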

Additional observations from a re-analysis of the deposited data

Results flagged for a closer look

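The mRNA level of Rps23, a protein of the decoding centre, moved in opposite directions at the 2 times in every library. Each siLarp1 library was above each siCtl library at 24 h, by 390 RPM in the mean, and below at 48 h, by -423 RPM. The fitted log2 changes were 0.12 ± 0.05 (limma voom, adjusted p = 0.87) and -0.16 ± 0.09 (adjusted p = 0.89). The difference between the times was not tested for abundance, and among 27 genes and 4 measures this was the only such case. Groups of 3 and 2 libraries are too small to test whether a single library is an outlier, and no such test was made. Fits that left out 1 library are described below.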

How the results depend on the processing

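Counts are members that passed, set against the 13 (short tails over both times), 0 (24 h) and 6 (48 h) of the report. For the other settings and the fits that left out 1 library, here and above, the share of all genes that passed is not given. The replicate block for short tails and abundance is the exception. The counts therefore show how calls depend on the setting, not whether the members stand out from other genes. Short tails over both times gave 2 with a limit of 20 nt and 6 with libraries thinned to equal depth. At 24 h they gave 13 with a limit of 40 nt, 2 with all quality tags, 3 with at least 100 reads, 16 with limma on log2 odds and 7 with the replicate block, and at 48 h they gave 1 with a limit of 20 nt, 11 with limma on log2 odds and 2 with the replicate block. A gene's own dispersion where larger gave 8 over both times, and a dispersion trend on read depth 3 at 24 h and 3 at 48 h. Leaving out 1 library gave 8 to 14 over both times, 0 to 3 at 24 h and 0 to 4 at 48 h, where the arm left with 1 library is assumed to vary like the others.

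For tails of 30 to 90 nt, 40 to 80 nt gave 0 at 24 h, 1 at 48 h and 1 over both times, thinning gave 0 at 24 h, limma on log2 odds gave 6 over both times, either other dispersion gave 0 at 24 h and 0 over both times, and leaving out 1 library gave 0 to 5 at 24 h, 0 at 48 h and 2 to 4 over both times. For the median tail, the mean of log2 lengths gave 1 at 24 h and 7 over both times, a barcode confidence of at least 0.9 gave 1 over both times, and leaving out 1 library gave 0 to 3 over both times, 0 to 1 at 24 h and 0 at 48 h. For abundance, no filter on reads gave 2, 1 and 2 (24 h, 48 h, both times) and the replicate block gave 5, 1 and 4, while leaving out 1 library gave 0 throughout. The replicate block also ended the call of Rpsa in the 30 to 90-nt class and changed no other call than those given. Rps27 turned to -0.043 with a limit of 20 nt and to -0.40 with thinned libraries. Of the other values of named genes, 448 kept direction and side of the threshold, 48 lost and 6 gained a call. The causes were not tested. Leaving out mitochondrial transcripts and pseudogenes, and the 3 other dispersions (a floor of 1, a gene's own where larger, a trend on read depth), were added after the data were seen.

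Short tails rest on 0 to 82 reads per gene and library.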
